A study of Rattus norvegicus with 6 samples.

Results

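The genes described here are 9 genes of epidermal growth factor (EGF) receptor signalling in the enterocyte nuclei of rat colon, chosen by name from the 17388 genes counted. They are the receptors Egfr, Erbb2 and Erbb3, the ligands Areg, Ereg, Hbegf and Tgfa, the inhibitor Errfi1, and Lrig3. Lrig3 is grouped with inhibitors through its relative Lrig1. The 9 genes are called the family here for short. Other relatives, such as the ligand genes Nrg1 and Nrg4, were kept in a separate list of pathway genes. The choice went by name and used no measured value, though earlier results of these data were known. Among these genes, Areg, the gene of amphiregulin, was the one whose level in every PL8177 library lay above every placebo and every sham library. Each library was read as 1 rat. Of all genes tested, 4.70% lay above placebo in this way and 6.02% above sham, and the share that did both was not counted. Between nuclei at the surface end and at the crypt end of the enterocytes, 5 of the 7 genes tested differed, as 54.1% of all genes tested did. The nuclei came from flash-frozen colon of male wildtype Wistar rats whose age is not given in the sources used here. For 3 days the drinking water of the placebo and PL8177 rats held 5% dextran sulfate sodium (DSS), which injures the colon epithelium. They then received capsules without drug (placebo) or with 50 µg PL8177, a melanocortin 1 receptor agonist bound in a polymer, 2 times daily over 4 days. The sham group had neither DSS nor capsules. It thus differs from placebo in DSS and capsules, and from PL8177 in DSS, capsules and drug.

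EGF receptors are tyrosine kinases in the cell membrane that pair with each other when a ligand binds, and they signal through the RAS and MAP kinase cascade and through PI3 kinase. Their ligands are made as membrane proteins and are released by proteases of the ADAM family, so a cell can act on itself and on its neighbours. In the colon this pathway is known for driving the division and migration of epithelial cells, and it is active when the epithelium closes a wound. Enterocytes arise in the crypts and move up to the surface, where they absorb water and salt and are shed.

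The enterocyte counts held 8782 nuclei. A prefix in the name of each nucleus was taken as the library of 1 rat, giving 3 libraries per treatment (sham GR12, GR13 and GR15, placebo GR22, GR23 and GR24, PL8177 GR41, GR43 and GR44). No label ties these prefixes to rats, so values per library rest on that reading, and the p-values measure the spread between these libraries. A library held 304 to 1531 enterocyte nuclei and 319125 to 4123319 unique molecular identifiers (UMIs, each 1 captured RNA molecule), and its median nucleus held 437 to 2331 UMIs. The 15 enterocyte markers, such as Slc26a3, Krt20 and Vil1, made up 124 to 285 of 10000 UMIs in every library. The 12 T cell markers in the counts made up 0.0336 to 0.407, and Cd5 among them was at 0 in all libraries. The 11 markers of surface enterocytes in the counts were lower in placebo (104 to 144 of 10000 UMIs) than in PL8177 (140 to 196) and sham (140 to 276), with 1 placebo library inside the range of the others. Placebo library GR23 stood apart: it held the fewest enterocyte nuclei, and its nuclei in the T cell counts held mostly enterocyte markers (157 of 10000 UMIs, against 1.98 of T cell markers). Of 9800 nuclei in both cell types, 10 barcodes occurred in more than 1 library, with at most 1 shared by any pair of libraries. Scrublet called 54 of the enterocyte nuclei doublets, and these were kept.

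The sequences before the start sites are shown for 4 genes, because their levels differed between nuclei of the surface and the crypt end, as described further on. They are the 250 bases before and the 50 bases after the start of transcription in RefSeq on build GRCr8, read 5′ to 3′ on the strand of the gene. The nuclei were counted on Rnor 6.0, so the positions belong to another build than the counts. RefSeq promoters were found for 7 of the 9 genes, not for Erbb3 and Ereg. Capitals mark 4 short motifs searched on both strands, TGACGTCA (the cAMP response element), TATAAA (the TATA box), GGGCGG (the GC box) and CACGTG (an E box), and none of the matches shown overlapped another.
Areg, chr14:17265592-17265891, minus strand: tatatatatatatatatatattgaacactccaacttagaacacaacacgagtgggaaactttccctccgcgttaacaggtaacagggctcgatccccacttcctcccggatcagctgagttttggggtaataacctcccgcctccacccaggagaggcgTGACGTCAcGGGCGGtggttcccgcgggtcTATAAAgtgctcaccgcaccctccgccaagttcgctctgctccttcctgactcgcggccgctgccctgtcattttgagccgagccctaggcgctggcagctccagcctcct
Egfr, chr14:95378376-95378675, plus strand: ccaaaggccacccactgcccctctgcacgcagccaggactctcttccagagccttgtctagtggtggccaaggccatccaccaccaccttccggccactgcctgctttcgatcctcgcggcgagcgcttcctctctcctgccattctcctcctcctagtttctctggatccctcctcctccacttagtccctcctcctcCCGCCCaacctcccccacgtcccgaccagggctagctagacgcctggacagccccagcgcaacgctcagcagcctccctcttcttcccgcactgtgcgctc
Errfi1, chr5:166606591-166606890, plus strand: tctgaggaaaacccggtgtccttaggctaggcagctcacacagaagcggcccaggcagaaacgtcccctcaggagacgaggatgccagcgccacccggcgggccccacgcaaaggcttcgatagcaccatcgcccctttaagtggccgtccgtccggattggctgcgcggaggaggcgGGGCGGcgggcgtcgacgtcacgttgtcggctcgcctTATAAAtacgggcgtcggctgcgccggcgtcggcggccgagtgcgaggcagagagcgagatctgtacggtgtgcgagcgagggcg
Lrig3, chr7:63701474-63701773, plus strand: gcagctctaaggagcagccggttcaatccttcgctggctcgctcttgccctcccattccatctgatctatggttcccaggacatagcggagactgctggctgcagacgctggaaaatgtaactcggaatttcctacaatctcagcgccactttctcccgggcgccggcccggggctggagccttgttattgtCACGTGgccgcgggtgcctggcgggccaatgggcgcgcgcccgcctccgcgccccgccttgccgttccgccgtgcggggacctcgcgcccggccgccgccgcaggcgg
The Areg promoter held a cAMP response element 91 bases before the start, which 1.83% of the 33469 RefSeq promoters of this length hold. It also held a GC box 82 bases and a TATA box 61 bases before the start. Errfi1 had a TATA box 35 bases and a GC box 72 bases before its start, Egfr had a GC box on the other strand 51 bases before its start, and Lrig3 had an E box 58 bases before its start. Among all RefSeq promoters, 14.2% hold the TATA box, 33.1% the GC box and 6.42% this E box. A match of letters is a description of the sequence only.

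All 3 receptors were found in every library, and none differed between treatments beyond the spread between libraries. Levels are given as UMIs of a gene per 10000 UMIs of all genes in the enterocyte nuclei of a library, and levels of different genes are not compared with each other. Egfr, the receptor that binds EGF, amphiregulin and transforming growth factor alpha, had levels of 4.95, 3.83 and 3.17 in the sham libraries, of 3.52, 4.48 and 3.32 under placebo, and of 7.26, 3.68 and 2.68 under PL8177. PL8177 thus held both the highest library (GR41) and the lowest (GR44), and all treatments overlapped. Erbb2, which binds no ligand itself and serves as a partner of the others, stood at 1.74, 2.92 and 2.75 in sham, at 1.63, 1.97 and 2.74 under placebo and at 1.95, 2.15 and 3.66 under PL8177. The ranges overlapped here too, with GR44 at the top. Erbb3, a receptor with little kinase activity that binds neuregulins, stood at 1.66, 2.16 and 2.04 in sham, at 1.81, 1.79 and 2.39 under placebo and at 1.82, 2.46 and 2.87 under PL8177. Its means were 1.95 ± 0.260 in sham, 1.99 ± 0.339 in placebo and 2.39 ± 0.528 in PL8177 (SD over 3 libraries each).

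Areg was the ligand whose PL8177 libraries did not overlap with the others. Its level was 2.08, 1.04 and 0.766 UMIs per 10000 in PL8177 libraries GR41, GR43 and GR44, against 0.526, 0.345 and 0.594 in placebo and 0.663, 0.468 and 0.303 in sham. Every PL8177 library lay above every placebo and every sham library, while sham and placebo overlapped. The mean was 1.30 ± 0.693 in PL8177, 0.488 ± 0.129 in placebo and 0.478 ± 0.180 in sham (SD over 3 libraries each), which made the PL8177 mean 2.65 times the placebo mean and 2.71 times the sham mean. The exact two-sided permutation test gave p = 0.1 for both, the smallest value that 3 against 3 libraries allow. These levels rested on 372, 429 and 59 Areg UMIs in PL8177, 208, 11 and 105 in placebo, and 211, 21 and 15 in sham. The GR41 UMIs came from 181 of its 1016 nuclei, with at most 14 in 1 nucleus, so no single nucleus made the level of that library.

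Ereg, the gene of epiregulin, another ligand of the receptor, was sparse. It had 47, 93 and 7 UMIs in PL8177 (0.263, 0.226 and 0.0909 per 10000), 63, 1 and 8 in placebo (0.159, 0.0313 and 0.0452), and 61, 4 and 2 in sham (0.192, 0.0891 and 0.0404). The upper PL8177 libraries lay above all others, and GR44 lay within the range of placebo and sham. Hbegf, the gene of heparin-binding EGF-like growth factor, had 98, 33 and 7 UMIs in PL8177 (0.548, 0.0800 and 0.0909 per 10000), 122, 2 and 10 in placebo (0.309, 0.0627 and 0.0565), and 65, 5 and 3 in sham (0.204, 0.111 and 0.0606). In each treatment 1 library (GR41, GR22 and GR12) stood far above the other 2, and the treatments overlapped. Tgfa, the gene of transforming growth factor alpha, stood at 0.729, 1.14 and 1.17 in sham, at 0.723, 0.846 and 0.588 under placebo and at 0.677, 0.538 and 0.883 under PL8177. The upper sham libraries lay above all others, and GR12 lay among the rest.

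Errfi1, also called Mig6, is induced by EGF receptor signalling and blocks the receptor kinase in return. It stood at 4.24, 2.87 and 3.05 in sham, at 4.83, 3.89 and 4.58 under placebo and at 4.99, 4.17 and 3.66 under PL8177. Sham libraries GR13 and GR15 were lower than all libraries of rats given DSS, whereas GR12 lay among them. Lrig3, a membrane protein with leucine-rich repeats and immunoglobulin-like domains, is grouped with inhibitors of receptor kinases through its relative Lrig1. It stood at 1.63, 1.00 and 0.908 in sham, at 1.66, 1.79 and 1.62 under placebo and at 1.39, 1.51 and 0.922 under PL8177. Every PL8177 library lay below every placebo library (exact two-sided permutation p = 0.1, again the smallest possible). Among all 9424 genes tested, 14.1% showed this pattern at the same scaling by library totals, so it was common at that scaling. Its PL8177 mean was 0.756 times the placebo mean.

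**Figure D1:**
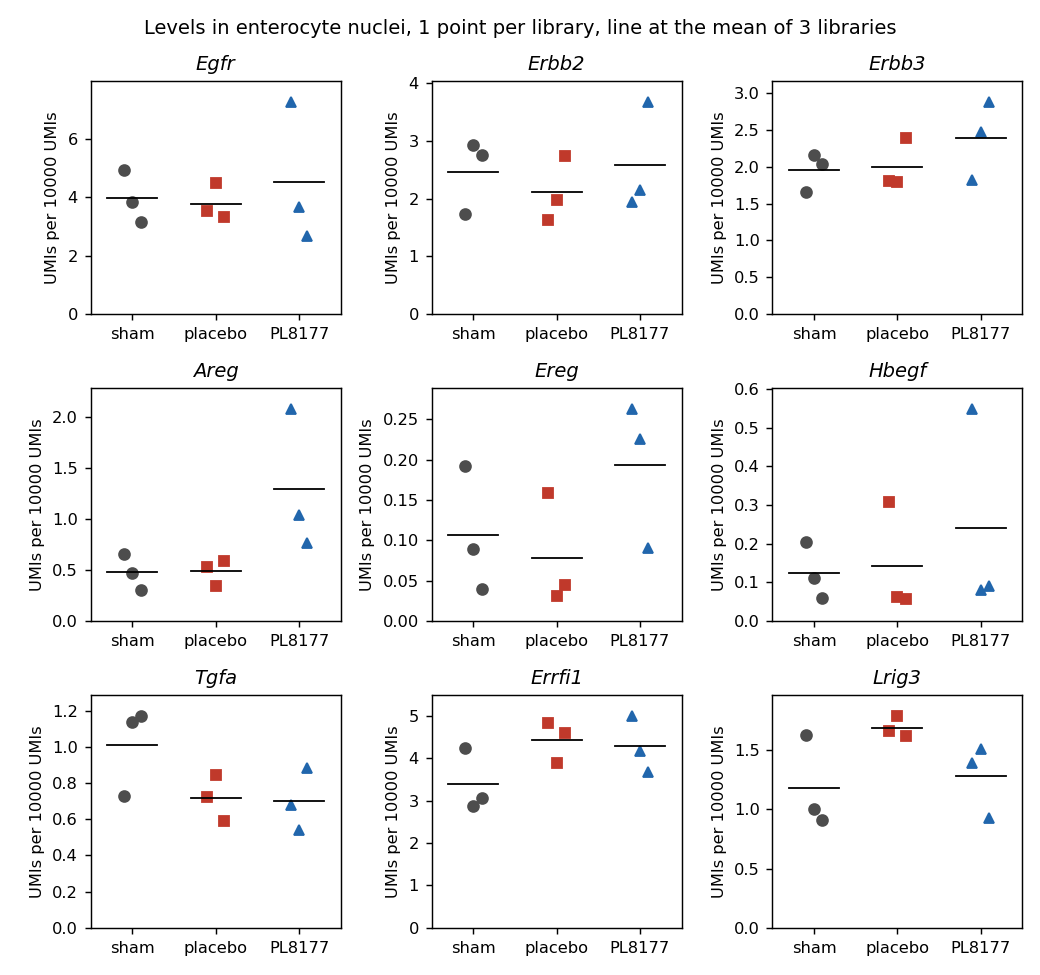
Level of each gene in UMIs per 10000 UMIs of the enterocyte nuclei (y axis, from 0, own scale for each gene), 1 point per library and a line at the mean of 3 libraries, by treatment (x axis). The 3 PL8177 points of Areg, at 0.766 to 2.08, lie above all placebo and sham points, and for Lrig3 all PL8177 points lie below the placebo points.

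When all genes were tested across the libraries, Areg was called higher in PL8177 than in placebo by DESeq2 and not by edgeR. The counts were summed per library and tested with the edgeR quasi-likelihood test (all 9 libraries in 1 fit, 9424 genes) and, as the alternative, with DESeq2. Calls required a Benjamini-Hochberg adjusted p under 0.05 together with a log2 fold change beyond 0.5 in either direction. All 9 genes of the family passed the filter on low counts. By edgeR, 0% of all genes were called in each of the 3 comparisons, although 1172, 871 and 621 genes had an unadjusted p below 0.05 in sham against placebo, PL8177 against placebo and PL8177 against sham. DESeq2 called 1.14%, 0.531% and 0.0424% of the genes in these comparisons.

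In PL8177 against placebo, the Areg log2 fold change was 1.50 ± 0.38 (SE) by edgeR, with an adjusted p of 0.270. DESeq2 gave 1.50 ± 0.41 with an adjusted p of 0.0427, and Areg was the only gene of the family that it called. Library GR41 carried much of this: without it the log2 fold change was 1.00 ± 0.34 (edgeR adjusted p = 0.665) and 0.99 ± 0.41 by DESeq2, which then gave no adjusted p. Leaving out placebo library GR23 gave 1.33 ± 0.41 by edgeR, and 1.34 by DESeq2 with an adjusted p of 0.219, so the DESeq2 call was lost. It was also lost without GR22 (DESeq2 adjusted p = 0.109), GR24 (0.278) or GR43 (0.0807). Against sham, Areg had a log2 fold change of 1.39 ± 0.38 in PL8177 with adjusted p-values of 0.733 by edgeR and 0.343 by DESeq2. Any pair of the 3 comparisons shares the libraries of 1 treatment. Sham against placebo gave 0.11 ± 0.39. A complete separation upward, as seen for Areg alone among the 9 genes, was found for 4.70% of all genes in PL8177 against placebo and 6.02% in PL8177 against sham. In sham against placebo, none of the 9 genes showed it, against 5.36% of all genes.

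The other 8 genes passed the threshold in no comparison, by edgeR or DESeq2. Ereg had a log2 fold change of 1.19 ± 0.57 (95% interval -0.03 to 2.42, edgeR adjusted p = 0.559) in PL8177 against placebo, and DESeq2 gave it no adjusted p there because of its low counts. For Tgfa the change was 0.65 ± 0.30 in sham against placebo (edgeR adjusted p = 0.403) and 0.14 ± 0.30 in PL8177 against placebo. The 3 receptors gave 0.43 ± 0.32 (Egfr), 0.46 ± 0.34 (Erbb2) and 0.42 ± 0.26 (Erbb3) in PL8177 against placebo. Their 95% intervals reached up to 1.12, 1.18 and 0.98, so neither no change nor a rise of that size lies outside them. Without GR41 the Egfr value was -0.06 ± 0.26. Errfi1 gave 0.10 ± 0.22 with an interval of -0.37 to 0.58, the narrowest of the family in this comparison. Hbegf gave 0.67 ± 0.75, which turned to -0.83 without GR41 and was 2.18 without GR22. Ereg was 2.36 ± 0.69 without GR22.

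In PL8177 against placebo, 8 of the 9 genes had a positive fitted change, with a median of 0.43, while 48.7% of all genes were positive and their median was -0.01. In PL8177 against sham, 8 of 9 were positive, with a median of 0.30, beside 52.8% and 0.03 over all genes. In sham against placebo, 6 of 9 were positive, with a median of 0.11, beside 48.3% and -0.02. In the family, Areg alone had an unadjusted p below 0.05 in each PL8177 comparison, and none in sham against placebo. With library totals in place of TMM factors, the median over all genes shifted to -0.16 in sham and -0.17 in PL8177 against placebo, so changes near 0 take their sign from the scaling. This holds for Errfi1 and Tgfa in PL8177 against placebo and for Areg and Erbb3 in sham against placebo, whose fitted change was positive while the mean level was lower.

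**Figure D2:**
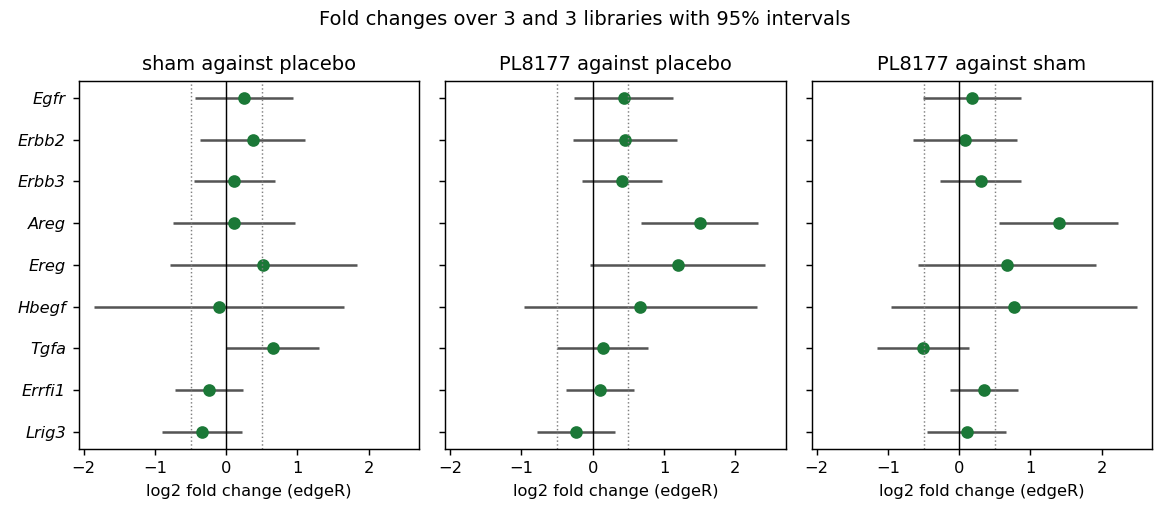
Log2 fold change of the 9 genes by edgeR (x axis) with 95% intervals, in sham against placebo, PL8177 against placebo and PL8177 against sham, each over 3 and 3 libraries. The interval of Areg excludes 0 in both PL8177 panels (1.50 and 1.39), all other intervals include 0, and the dotted lines mark the fold threshold of 0.5.

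More PL8177 nuclei held an Areg UMI when depth was made equal. The depth of the nuclei differed between libraries, so each nucleus was thinned to 300 UMIs and shallower nuclei were left out (252 in sham, 103 in placebo and 207 in PL8177). At this depth 2.92% of 3152 PL8177 nuclei held an Areg UMI (95% Clopper-Pearson interval 2.36 to 3.57), against 1.37% of 2856 placebo nuclei (0.973 to 1.86) and 1.31% of 2212 sham nuclei (0.880 to 1.88). These intervals cover counting error only. By library the shares were 3.89%, 2.87% and 1.76% in PL8177, 1.35%, 0.370% and 1.59% in placebo, and 1.84%, 1.18% and 0.658% in sham, so GR44 lay below sham library GR12. Without thinning, the shares were 14.1% in PL8177, 6.93% in placebo and 6.53% in sham, at median depths of 1279, 1244 and 730 UMIs. In nuclei of the T cell counts without GR23, 1 of 304 thinned nuclei held an Areg UMI (0.329%, interval 0.00833 to 1.82). The upper bound lies above the sham share and its neighbour in placebo, so these cannot be told from that background at this depth. The background itself was not free of epithelial RNA, with enterocyte markers at 13.3 to 75.3 per 10000 UMIs by library, and how much this adds to its shares was not tested.

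For Egfr the thinned shares were 9.22% in sham, 7.32% in placebo and 9.96% in PL8177 nuclei, and 2.30% in the T cell counts without GR23. For Errfi1 they were 9.04%, 10.6% and 10.4%, and 3.62% in the T cell counts. Both genes were thus found in enterocyte nuclei above the level of the T cell counts. Lrig3 was found in 3.84% of sham, 6.65% of placebo and 4.19% of PL8177 nuclei, beside 3.95% in the T cell counts (interval 2.06 to 6.79). Its shares in all treatments lay within that interval, so they cannot be told from that level. Ereg and Hbegf were in at most 0.698% of thinned nuclei in any treatment, and 0 of 304 nuclei of the T cell counts held either, which allows a share of up to 0.987% by the limit of 3 counts, or 1.21% by the Clopper-Pearson upper bound.

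Of the 9 genes, 7 were tested between crypt and surface nuclei and 5 were called, 4 higher and 1 lower at the surface, where 54.1% of all genes tested were called. In each library, nuclei with at least 500 UMIs (6781 in all, 2001 left out) were ordered by the share of their UMIs in the 11 surface markers, and the highest 1 of 3 nuclei (surface end) were set against the lowest 1 of 3 (crypt end). The 12 crypt markers, such as Mki67 and Lgr5, which played no part in the ordering, were higher at the crypt end in 9 of 9 libraries (2.79 to 9.03 of 10000 UMIs, against 1.02 to 2.74 at the surface end). The crypt ends of GR13 and GR44 still held 139 and 82.0 surface marker UMIs per 10000, against 9.00 to 55.7 in the other libraries, so their ends were less distinct. With Slc26a3 left out of the ordering, an alternative setting, crypt markers in GR13 were at 1.95 (crypt end) and 1.97 (surface end). The check thus did not hold for GR13 in that setting. Depth differed too: the median nucleus held 729.5 to 1687 UMIs at the crypt ends and 663.5 to 3983 at the surface ends. In GR22 these medians were 1267 and 3983. They were closer in GR13 (729.5 and 663.5), GR15 (785.5 and 759) and GR44 (901 and 968.5). The part of depth in the differences along this order was not tested. The ends were tested with edgeR with the library as a block, over 5020 genes without the surface markers. The ordering used other genes of the same nuclei, and 2715 of the 5020 genes were called, so a call by itself does not set a gene apart. Ereg and Hbegf did not pass the filter and were not tested.

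Areg had the largest difference of the family. It was higher at the surface end by 3.20 ± 0.37 on the log2 scale (edgeR adjusted p = 4.59e-06), and higher in 8 of 9 libraries, GR13 being the exception. At the crypt end it stood at 0.0955, 0.673 and 0 per 10000 in sham, at 0.0494, 0 and 0.165 under placebo and at 0.260, 0.142 and 0.624 under PL8177. At the surface end it stood at 1.09, 0.501 and 0.629 in sham, at 0.795, 0.688 and 0.809 under placebo and at 3.73, 1.64 and 1.06 under PL8177. The crypt values rested on 0 to 13 UMIs per library, so the size of the difference is less certain than its direction. Within the surface end alone, the log2 fold change of Areg in PL8177 against placebo was 1.53 ± 0.41, as large as over all nuclei. All PL8177 libraries lay above all placebo libraries there, while sham library GR12, at 1.09, lay above PL8177 library GR44, at 1.06. By edgeR this fit, chosen after seeing the data, called 0 of 6454 genes. It reuses UMIs of the fit over all nuclei, such as 285 of 372 in GR41 and 23 of 59 in GR44, so it is no separate evidence.

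Egfr was higher at the surface end by 1.33 ± 0.24 (edgeR adjusted p = 0.000197), in 8 of 9 libraries. Its mean went from 2.75 ± 1.02 per 10000 at the crypt end to 3.76 ± 1.26 in the middle and 5.71 ± 2.52 at the surface end (SD over 9 libraries), with 10.7 at the surface end of GR41. GR44, at 3.94 at the crypt end and 2.64 at the surface end, went the other way. Errfi1 was higher by 1.22 ± 0.19 (edgeR adjusted p = 5.42e-05) in 8 of 9 libraries, all but GR13, with means of 2.72 ± 0.498, 3.97 ± 0.766 and 5.11 ± 1.27. Erbb3 was higher by 1.19 ± 0.24 (edgeR adjusted p = 0.000466) in 7 of 9 libraries, with means of 1.56 ± 0.858, 2.18 ± 0.624 and 2.49 ± 0.595. The ligand Areg and its receptor Egfr, together with the feedback inhibitor Errfi1, were thus all called higher at the same end, as were 1287 of all 5020 genes tested. Over 13 alternative settings, each single library left out among them, the difference was called each time for Areg (2.94 to 3.64), Egfr (1.14 to 1.57), Errfi1 (1.06 to 1.43) and Erbb3 (1.06 to 1.44).

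Lrig3 went the opposite way. It was lower at the surface end by -1.75 ± 0.16 on the log2 scale (edgeR adjusted p = 6.87e-07) and lower in 9 of 9 libraries, going from 2.59 ± 1.18 per 10000 at the crypt end to 1.26 ± 0.453 in the middle and 0.650 ± 0.150 at the surface end. Surface levels lay between 0.370 and 0.823 in all libraries, whereas crypt levels ran from 0.769 in GR13 to 3.81 in GR24. Tgfa gave -0.22 ± 0.14 (edgeR adjusted p = 0.179) and was not called, although its level was lower at the surface end in 9 of 9 libraries (0.892 ± 0.193 at the crypt end and 0.631 ± 0.172 at the surface end). Erbb2 gave 0.26 ± 0.13 (edgeR adjusted p = 0.103), with means of 2.43 ± 0.678 and 2.34 ± 0.706 per 10000. The fitted difference was positive while the mean level was lower at the surface, and the surface level was higher in 4 of 9 libraries, so Erbb2 has no direction here. For Ereg, the crypt ends held 0 to 6 UMIs and the surface ends 0 to 55, with the surface level higher in 7 of 9 libraries. For Hbegf, they held 0 to 6 and 1 to 78 UMIs, with the surface level higher in 8 of 9.

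**Figure D3:**
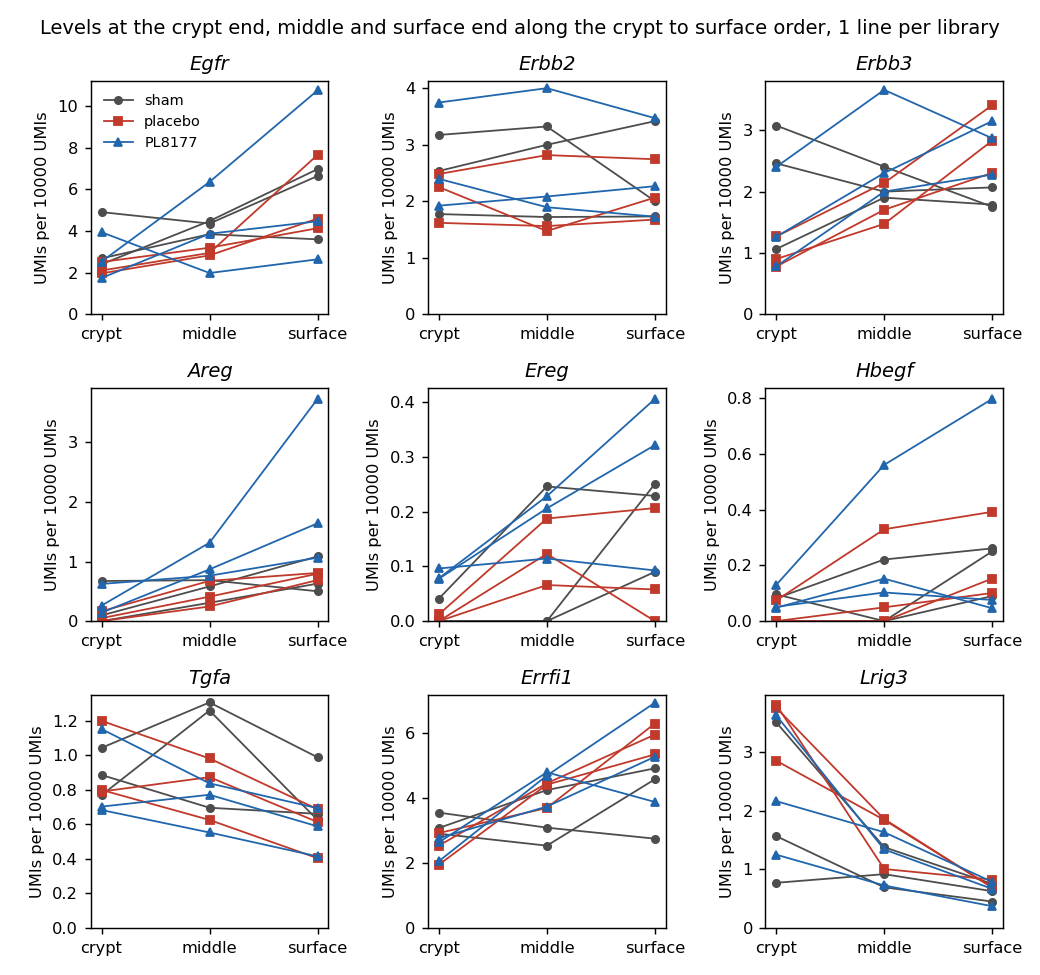
Level of each gene in UMIs per 10000 UMIs (y axis, from 0, own scale for each gene) in the crypt end, the middle and the surface end of the nuclei (x axis), 1 line per library, coloured by treatment. Areg climbs to 3.73 at the surface end of a PL8177 library, Egfr, Erbb3 and Errfi1 rise in most libraries, and Lrig3 falls in all 9.

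The difference between surface and crypt was also fitted within each treatment. In placebo, 45.7% of all genes were called, in PL8177 38.6% and in sham 6.45%. Areg was called in all 3, at 3.56 ± 0.74 in placebo, 3.21 ± 0.56 in PL8177 and 2.78 ± 0.77 in sham. Lrig3 was called in all 3 too, at -1.93 ± 0.27, -1.63 ± 0.27 and -1.61 ± 0.33. Egfr, Erbb3 and Errfi1 were called in placebo and PL8177 and not in sham. The test of the difference between treatments called 0% of all genes, so this gap was not shown by it. Erbb3 had the largest difference of the family: it was 1.87 ± 0.32 in placebo, 1.36 ± 0.30 in PL8177 and 0.27 ± 0.33 in sham, a difference of -1.60 ± 0.46 between sham and placebo (edgeR adjusted p = 0.229). In sham libraries GR13 and GR15, Erbb3 was higher at the crypt end (3.08 and 2.46 per 10000) than at the surface end (1.75 and 2.07), and GR13 was one of the libraries with less distinct ends. Errfi1 differed by -0.97 ± 0.40 between sham and placebo (edgeR adjusted p = 0.366). For Areg, the PL8177 and placebo differences themselves differed by -0.35 ± 0.97 (edgeR adjusted p = 0.999), with a 95% interval of -2.42 to 1.72.

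Other genes of the pathway were taken from a list of 66 genes, of which 65 were in the counts and 53 were tested by treatment. By edgeR 0 of 53 were called in any treatment comparison, while 11, 9 and 7 had an unadjusted p below 0.05 in sham against placebo, PL8177 against placebo and PL8177 against sham (12.4%, 9.24% and 6.59% of all genes did). The fitted change was positive for 31, 40 and 33 of the 53 genes, beside 48.3%, 48.7% and 52.8% of all genes. DESeq2 called 2 genes in PL8177 against placebo, 1 in sham against placebo and 0 in PL8177 against sham, where it called 0.531%, 1.14% and 0.0424% of all genes. The first was Dusp5, a nuclear phosphatase that switches off the MAP kinase ERK, at a log2 fold change of 1.30 (DESeq2 adjusted p = 0.0134, edgeR adjusted p = 0.239). Its level was 1.88, 1.75 and 3.26 per 10000 in PL8177, 1.02, 1.22 and 0.933 in placebo, and 1.73, 1.54 and 1.57 in sham, so all PL8177 and all sham libraries lay above all placebo libraries. Such a separation above placebo was seen for 4.70% of all genes in PL8177 and for 5.36% in sham. The DESeq2 call was lost without GR22, GR24 or GR44.

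Egr1, an immediate early transcription factor induced by ERK, fell by 2.18 in PL8177 against placebo (DESeq2 adjusted p = 0.0259, edgeR adjusted p = 0.270). It stood at 0.145, 0.192 and 0.143 per 10000 in PL8177, 1.37, 0.721 and 0.328 in placebo, and 0.525, 0.178 and 0.101 in sham. All PL8177 libraries lay below all placebo libraries, as they did for 14.1% of all genes. The DESeq2 call for Egr1 was lost without GR22, GR23 or any of the PL8177 libraries. Map2k1, the kinase MEK1 that activates ERK, was the gene that DESeq2 called in sham against placebo (1.17, DESeq2 adjusted p = 0.0443, edgeR adjusted p = 0.200). Its sham libraries stood at 2.66, 6.26 and 4.16 and its placebo libraries at 2.20, 2.35 and 2.13. Sham lay above placebo with no overlap, as for 5.36% of all genes, and the call was lost without GR13, GR15, GR43 or any placebo library. Epha2, a receptor kinase induced by EGF, stood at 2.25, 1.29 and 1.21 in PL8177, 0.865, 0.752 and 0.967 in placebo, and 0.943, 0.757 and 0.787 in sham, and it was not called by edgeR (1.01 ± 0.27, adjusted p = 0.273) or DESeq2. Like Areg, its PL8177 libraries lay above all others, where 4.70% of all genes lay above placebo and 6.02% above sham. These pathway genes were named for a small p or a call, so their separation is not independent of the choice. The shares of all genes beside them also rest on levels without TMM factors.

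The genes with the smallest p in each edgeR comparison were otherwise not called by edgeR or DESeq2 over all 9 libraries. In sham against placebo they were Rnf41, a ubiquitin ligase that acts on ErbB3 (1.17 ± 0.31), Dusp5 (0.79 ± 0.28), Lrig2 (0.68 ± 0.26) and the adaptor Grb2 (0.60 ± 0.22). In PL8177 against placebo they also held Phlda1 (1.36 ± 0.51) and the phosphatase gene Ptpn1 (0.83 ± 0.30). In PL8177 against sham they were Epha2 (0.93 ± 0.27), Map2k1 (-0.95 ± 0.31), the small GTPase Hras (1.28 ± 0.42), Rnf41 (-0.85 ± 0.30) and Ptpn1 (0.87 ± 0.31). With 1 library left out, DESeq2 called Rnf41 in sham against placebo without GR12 (adjusted p = 0.0269) or GR44 (0.0498). It also called Map2k1 in PL8177 against sham without GR12 (-1.28, DESeq2 adjusted p = 0.00772).

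Along the crypt to surface order, 41 genes of the list were tested, 12 were called higher and 9 lower at the surface end, and their median was 0.21, against -0.06 over all 5020 genes. The list was thus called no more often than genes in general, of which 54.1% were called, and its members are given as a description. Of the 12 inhibitors, Dusp5 (2.70 ± 0.41), Dusp6 (2.17 ± 0.29) and Cblb (1.06 ± 0.17) were higher and 5 were lower, led by the receptor phosphatase Ptprj (-1.94 ± 0.25) and the RAS inhibitor Spred1 (-1.03 ± 0.23). Of the 21 transducers, 6 were higher, among them Eps8 (2.46 ± 0.32), Erbin (1.35 ± 0.19), a partner of ErbB2, and Map2k1 (1.05 ± 0.14), and Plcg1 (-0.56 ± 0.21) was among those lower. Eps8 is an EGF receptor substrate that also caps and bundles actin in microvilli. Of the 4 targets, Fos (1.60 ± 0.26), Egr1 (1.50 ± 0.30) and Epha2 (1.00 ± 0.17) were higher, and the cell cycle gene Ccnd1 (-0.86 ± 0.20) was lower. Adam17, the main protease that releases amphiregulin, was lower (-0.61 ± 0.18), and Adam10 and Rhbdl2 were not called.

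**Figure D4:**
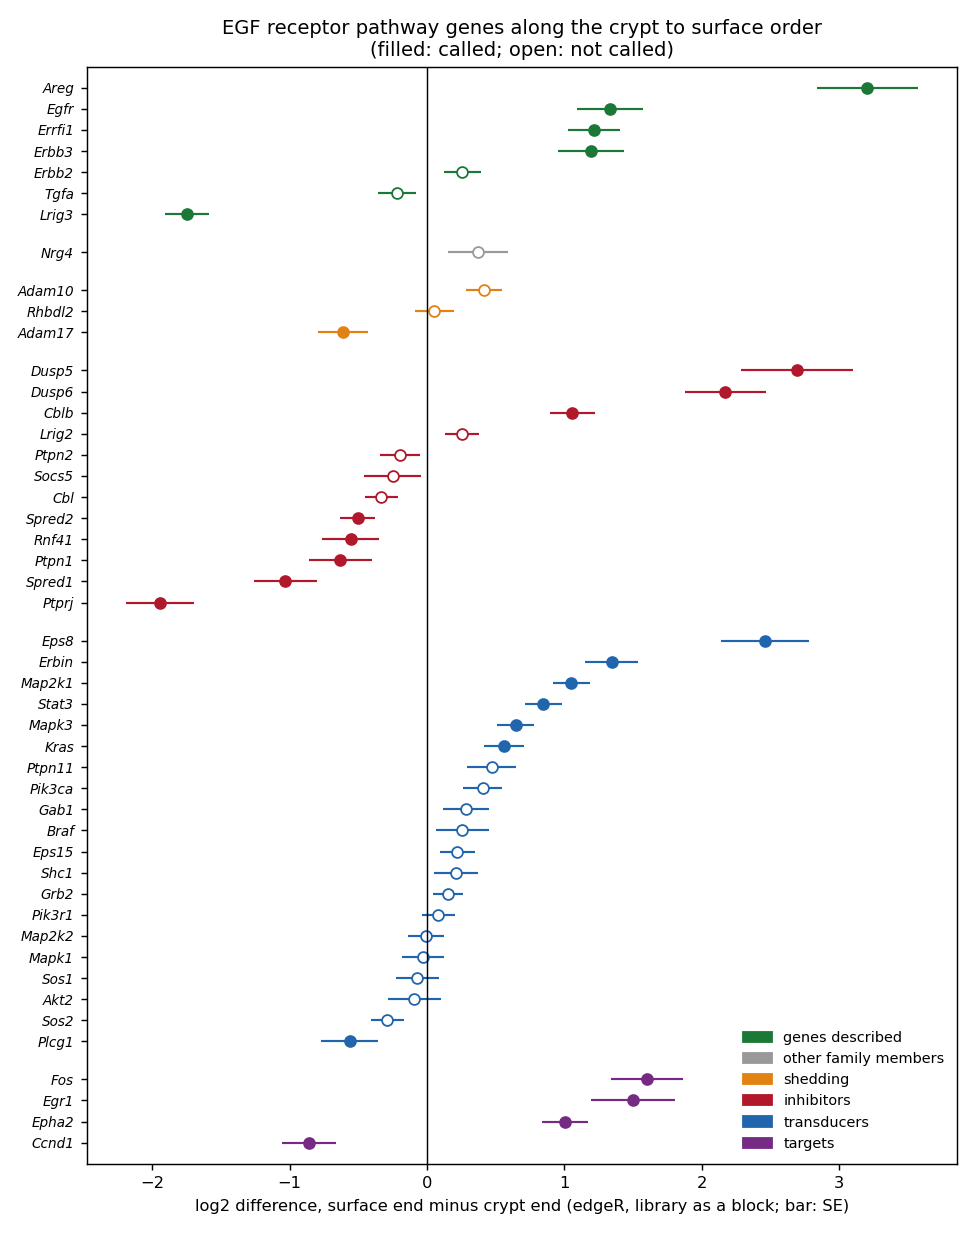
Log2 difference between the surface and the crypt end by edgeR (x axis, bars are SE) for the 7 tested genes of the family and for genes of the pathway list, grouped by role, filled where called. Areg (3.20) has the largest difference of all genes plotted, followed by Dusp5 (2.70), Eps8 (2.46) and Dusp6 (2.17), and Ptprj (-1.94) and Lrig3 (-1.75) are the lowest.

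For the genes of the family with the most UMIs, the 3 genes most alike in level over the 9 libraries are named as a description. For Errfi1 (7366 UMIs) these were Srsf10, Ola1 and Slc6a6, with Pearson correlations of log2 CPM of 0.97, 0.95 and 0.94 over 9 libraries. For Egfr (7050 UMIs) they were Ptk2, Itga6 and Zfhx3, at 0.96, 0.96 and 0.95. These were picked as the highest among 9424 genes, and the genes share library and depth at each point.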

How the data were processed

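Nuclei from flash-frozen rat colon were sequenced as 10x Genomics 3' libraries, with introns counted. The authors deposited 6 tables of UMI counts per gene and nucleus, for T cells and enterocytes in sham, placebo and PL8177, made with Cell Ranger 6.0.1 and Seurat 4.0.3 per the submitters' processing notes, on Rnor 6.0, after CellBender and filters on genes and mitochondrial reads. The cell types are those of the deposited tables. CellBender removes background RNA before deposit, so low counts depend on its settings. The placebo T cell table held 15108 of 17388 complete genes and 1 incomplete line, which was dropped.

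Enterocyte counts were summed by library prefix (319125 to 4123319 UMIs) and tested with edgeR 4.0.16 (quasi-likelihood test, TMM, filterByExpr, all libraries in 1 fit) in R 4.3.3. DESeq2 1.42.0, other scalings, filters, nuclei and left-out libraries were alternatives, as were settings of the crypt to surface order. Exact two-sided permutation tests were run on levels (scipy 1.17.1). Shares carry Clopper-Pearson 95% intervals, and nuclei are not replicates. Doublets were called with Scrublet in scanpy 1.11.5. The fits of sham and of PL8177 against placebo (edgeR and DESeq2) and the edgeR fit of the crypt to surface order were tested on simulated data. Other fits were not. The 9 genes are all named. From the pathway list, the 5 genes with the smallest unadjusted p in each edgeR comparison and any gene called are named. One gene of this list is counted but not reported here. For each of the 2 genes of the family with the most UMIs, the 3 most correlated genes are named. The 9 genes and all lists were chosen with earlier results of these data known.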

Additional observations from a re-analysis of the deposited data

Results flagged for a closer look

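The T cell counts were used only as a background, and 4 genes of the family stood out in the nuclei of placebo library GR23 there, each with at least 100 UMIs and above every sham library. Egfr was at 7.78 UMIs per 10000 in these 685 nuclei, Erbb2 at 3.39, Erbb3 at 2.99 and Errfi1 at 4.72. In the same nuclei enterocyte markers were at 157 per 10000 and T cell markers at 1.98, against 22.0 to 54.6 for T cell markers in the T cell nuclei of the other libraries. The part of these markers in the 4 values was not tested.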

How the results depend on the processing

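For PL8177 against placebo, edgeR called 0 genes, DESeq2 50, edgeR with no filter on low counts 8, and DESeq2 on every gene 70, and leaving out 1 library gave 0 to 48 over both tools. For PL8177 against sham, edgeR called 0, DESeq2 4, no filter 10 and DESeq2 on every gene 4, with 0 to 52 without 1 library. For sham against placebo, edgeR called 0, DESeq2 107, library totals 5, no filter 51, nuclei thinned to 300 UMIs 9, DESeq2 on every gene 115 and the crypt end alone 1, with 0 to 219 without 1 library. Of the 9 genes, DESeq2 called 1 in PL8177 against placebo (Areg), also on every gene, and 0 to 1 without 1 library in either PL8177 comparison. For Areg against placebo, 28 alternatives gave 0.99 to 1.74 with adjusted p-values of 0.0188 to 0.671 (edgeR or DESeq2), and 6 called it, all by DESeq2. Against sham they gave 0.88 to 1.71, and 1 called it.

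Several changes that passed no threshold turned sign, and the cause was not tested. With library totals, Areg was -0.025 and Erbb3 -0.045 in sham against placebo, and Errfi1 was -0.062 and Tgfa -0.039 in PL8177 against placebo. With nuclei of at least 500 genes, Areg was -0.024 and Erbb3 -0.031 in sham against placebo, and Egfr was -0.0028, Erbb2 -0.026 and Lrig3 -0.064 in PL8177 against sham. In thinned nuclei, Erbb2 was -0.043 in PL8177 against sham and Tgfa -0.14 in PL8177 against placebo. In the surface end alone, Erbb3 was -0.64 in sham against placebo, and Erbb3 was -0.0045 and Errfi1 -0.091 in PL8177 against placebo. In the crypt end alone, Egfr was -0.33, Erbb3 -0.59 and Errfi1 -0.41 in PL8177 against sham, and Errfi1 was 0.55 in sham against placebo.

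Without 1 library, sham against placebo ran from -0.22 to 0.36 for Areg, -0.039 to 0.30 for Erbb3, -0.42 to 1.69 for Ereg and -0.80 to 1.41 for Hbegf. PL8177 against placebo ran from -0.071 to 0.69 for Egfr, -0.024 to 0.18 for Errfi1, -0.83 to 2.18 for Hbegf and -0.10 to 0.32 for Tgfa. PL8177 against sham ran from -0.33 to 0.44 for Egfr, -0.32 to 0.31 for Erbb2, -0.73 to 1.46 for Hbegf and -0.086 to 0.39 for Lrig3. Along the crypt to surface order, all 91 alternative values of the 7 tested genes kept their direction and side of the threshold. The surface and crypt end fits, DESeq2 on every gene and DESeq2 with libraries left out were chosen after seeing the data. No paired analysis of the treatments was possible because the sample labels give no replicate numbers, and nothing says that digits shared by the prefixes pair libraries. Depth limits Ereg and Hbegf most, at 286 and 345 UMIs in all.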
